A study of Mus musculus with 22 samples.

Results

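The 200 loci with the most sequenced fragments in total mRNA of mouse liver at 0 h were followed through the first hours of the unfolded protein response (UPR). They were taken from 39843 loci that had a complete estimate in every library and group mean used, out of 39897 in the table, and were selected on the authors' 0 h group mean of total mRNA, of which the highest were kept. Their 0 h means ran from 6521 to 206314 scaled fragments, with a median of 13326. At the edge of the list, ranks 199 and 200 had means of 6543 and 6521, and ranks 201 and 202, which were left out, had 6499 and 6493. A high total of fragments is what chose these loci, so their 0 h levels are a description and no test is given for them. The counting step skips loci with too many reads: 37 of the 54 incomplete loci were skipped in at least 1 of the libraries used, and 5 incomplete loci had a 0 h mean above that of rank 200, the largest being 529341. Skipped values are listed at 0, and 36 of the 37 were skipped in all 0 h total libraries, so this count of 5 can miss them. In a library where it was counted, a skipped locus reached 923792 fragments, beside at most 364160 for any of the 200 loci. The 200 loci are therefore the most abundant among those that were counted in full, not of the whole liver transcriptome.

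The mice were C57BL/6 males of 5 weeks. They received 0.1 mg/kg of tunicamycin (Tm), an inhibitor of N-linked glycosylation that makes unfolded proteins accumulate in the endoplasmic reticulum, by intraperitoneal injection at 8 am, and livers were taken 2 h and 4 h later. The 0 h mice were culled at 9 am. The labels list tunicamycin for them too, while the methods call them controls and do not say whether they were injected. Because the mice were culled at different hours of the day, time after Tm and time of day cannot be told apart. Total RNA was sequenced from 3 libraries at each of 0 h, 2 h and 4 h, and RNA of heavy polysomes, the gradient fractions with more than 3 ribosomes per mRNA, from 3 libraries at 4 h. At 0 h and 2 h the labels list 2 polysomal libraries and the table holds 3 read groups, so for these time points only the authors' group means were used. The loci carry identifiers without gene names or coordinates. They are named here by rank, with the identifiers of a few, and the liver label could not be checked against marker genes.

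In the unfolded protein response, the kinase PERK phosphorylates eIF2α and lowers translation initiation. The other sensors, IRE1 and ATF6, drive a transcriptional programme, and IRE1 can also cleave mRNAs at the membrane of the endoplasmic reticulum. The liver devotes much of its mRNA to a limited number of abundant messages, among them those of secreted plasma proteins, which enter this compartment as they are made. The number of ribosomes on an mRNA depends on how often translation starts and on the length of its coding region, so short mRNAs can be well translated and still carry few ribosomes.

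The 12 libraries used held between 8902468 and 16857947 fragments in complete loci. Libraries of a group agreed in the log2 fragments of the 200 loci, with Pearson's r from 0.935 to 0.979, but every pair differed by more than sampling noise, with chi-square per degree of freedom of at least 222.4, so none was counted as a repeat of another. Between total libraries the median coefficient of variation of the 200 loci was 8.34% (0 h), 11.04% (2 h) and 7.54% (4 h). The 9373 expressed loci, those whose 6 group means averaged 50 scaled fragments or more, gave 9.29%, 11.4% and 8.78%. In polysomal mRNA at 4 h it was 14.2%, beside 12.2% over 9371 of them.

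The 200 loci held close to the same large part of the total mRNA fragments in complete loci at 0 h and 2 h and less of them at 4 h. Their share of the counted fragments was 46.1%, 48.3% and 48.5% in the libraries of 0 h (47.6% ± 1.33, SD, n = 3). It was 48.9%, 45.9% and 50.1% at 2 h (48.3% ± 2.18, SD, n = 3), and 43.4%, 42.0% and 42.8% at 4 h (42.7% ± 0.693, SD, n = 3). Every 4 h library lay below every 2 h library. The difference of -5.56 percentage points between 4 h and 2 h gave an exact permutation p of 0.1 (two-sided), the smallest that 3 against 3 libraries allow. As a share of summed FPKM (fragments scaled to length and to library size, a level per length), the difference was -1.05 points, the libraries of 2 h and 4 h overlapped and the exact permutation p was 0.8. The widest 95% Wilson interval of any of these shares was 0.0654 points, and it covers counting error only. Skipped loci are outside these shares, and whether the part left out changed with time was not tested.

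The upper end of the list lost the most. The 10 highest loci fell from 13.2% ± 1.07 at 2 h to 10.1% ± 0.548 at 4 h (SD, n = 3), and the 50 highest from 30.4% ± 2.01 to 24.4% ± 0.776. These differences were -3.09 and -6.07 points. Neither set overlapped between the time points, each with an exact permutation p of 0.1. The loci were ranked at 0 h, and their levels at 2 h kept that order more closely than at 4 h (Spearman correlations of 0.965 and 0.823 by group means). Ranking at 0 h thus favours falls from 2 h to 4 h. The falls in share, also that of all 200 loci, are therefore a description. By the mean shares, 106 of the 200 loci lost and 94 gained, with sums of -10.8 and 5.25 points. The 10 largest losses summed to -6.39 points and the 10 largest gains to 3.20. A share is relative to the other loci of a library, and in whole liver less RNA per cell cannot be told apart from fewer cells of a type.

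**Figure D1:**
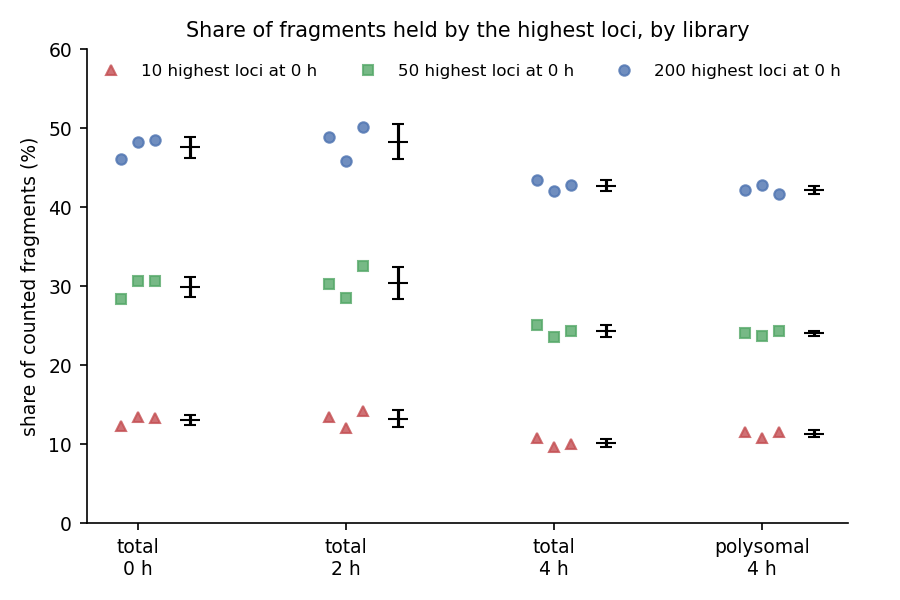
Share of counted fragments (%) held by the 10, 50 and 200 loci with the highest 0 h mean, in each library of total mRNA at 0 h, 2 h and 4 h and of polysomal mRNA at 4 h (points, with mean ± SD in black, n = 3). The 200 loci lie between 45.9% and 50.1% at 0 h and 2 h and between 41.7% and 43.4% in all libraries of 4 h.

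No 0 h level enters the contrast of total mRNA at 4 h and 2 h, but the loci were chosen as the highest at 0 h. By group means, the 200 loci had a Spearman correlation with their 0 h levels of 0.965 at 2 h and 0.823 at 4 h. Choosing at 0 h thus favours falls from 2 h to 4 h, and nothing is read from the balance of the calls. By the edgeR quasi-likelihood test, with thresholds of 2-fold and of 0.05 for the adjusted p, 5 of the 200 loci were called higher at 4 h, where 3.63% of the 12606 loci tested were called, and 14 lower, where 3.17% were. All 200 loci passed the filter on low counts. The median log2 fold change was -0.08 over the 200 loci and 0.01 over all loci tested. Without a minimum fold change, 22 of the 200 were called higher, beside 15.4% of all loci, and 48 lower, beside 10.9%. The libraries of the time points did not overlap for 40 loci that were higher at 4 h (background 23.1%) and 58 that were lower (background 18.6%). Scaling by the upper quartile in place of TMM moved the median of all loci to -0.10 and the split of the 2-fold calls to 4 higher and 20 lower.

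The largest rises were those of XLOC_033881 and XLOC_017764, at ranks 89 and 82. XLOC_033881 had 1367, 1338 and 1578 normalised CPM (counts scaled to a common library size) at 0 h, 3321, 2199 and 2363 at 2 h, and 7491, 8318 and 7099 at 4 h. Each time point lay above the one before without overlap, and between 2 h and 4 h the log2 fold change was 1.54 ± 0.16 (SE), with an adjusted p of 5.23e-05 from the edgeR quasi-likelihood test. XLOC_017764 had 1782, 1205 and 1653 CPM at 0 h, 4622, 3796 and 3015 at 2 h, and 10049.8, 11509.6 and 11594 at 4 h. It rose between 2 h and 4 h by a log2 fold change of 1.54 ± 0.18 (SE, adjusted p = 0.000119, edgeR), and its place in the order of total mRNA went from 82 at 0 h to 30 at 2 h and 5 at 4 h. The other loci called higher stood at ranks 83, 162 and 192. Their log2 fold changes were 1.40 ± 0.15, 1.07 ± 0.13 and 1.45 ± 0.28 (SE). The locus at rank 192 did not follow the pattern of the first ones: it had 515.9, 980.5 and 541.5 CPM at 0 h, 324, 149.8 and 204 at 2 h, and 624.5, 654.2 and 577.5 at 4 h, so that it rose from a low level at 2 h to about its level at 0 h. Together the 5 loci went from 1.01% of the fragments at 2 h to 2.84% at 4 h.

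The largest falls were those of XLOC_030527 and XLOC_032037, at ranks 31 and 26. XLOC_030527 had 818.9, 6367 and 3389 CPM at 0 h, 6644, 4227 and 11199.8 at 2 h, and 236.2, 48.09 and 215.8 at 4 h. XLOC_032037 had 1257, 7236 and 4619 CPM at 0 h, 7723, 4661 and 12273 at 2 h, and 384.1, 111.7 and 427.6 at 4 h. Both varied widely between the libraries of a time point. At 0 h and at 2 h the libraries stood in the same order for both loci, and at 4 h the same library was the lowest. Even so, the highest 4 h library of either locus lay below its lowest library of 0 h and of 2 h. The log2 fold changes between 2 h and 4 h were -5.46 ± 0.78 and -4.74 ± 0.67 (SE), with adjusted p of 0.000468 and 0.000433 from edgeR. By their group means they went from places 16 and 12 in the order of total mRNA at 2 h to 948 and 462 at 4 h. Whether the pair shares reads, as near-identical gene copies would, was not tested, since the files give neither names nor sequences.

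The other 12 loci called lower fell by between 2.02-fold and 4.01-fold. They included some of the most abundant: the locus at rank 7 went from 16717 ± 5471 CPM at 2 h to 6351 ± 226.9 at 4 h (SD, n = 3), a log2 fold change of -1.40 ± 0.24 (SE, adjusted p = 0.00133, edgeR). The locus at rank 12 went from 11770 ± 3422 to 2937 ± 322.8 CPM (SD, n = 3), with a log2 fold change of -2.00 ± 0.23 (SE, adjusted p = 0.00013, edgeR). All 14 loci had every 4 h library below every 2 h library. They ranged from rank 7 to rank 160 and held 4.69% of the fragments at 0 h, 6.41% at 2 h and 1.80% at 4 h. By their fitted log2 fold changes, 11 of the 14 were above their 0 h level at 2 h, beside 76 of the 200 loci. The same 2 h libraries picked the 14, which favours such a count, and none of the 14 passed the thresholds between 2 h and 0 h. No rise before the fall is read from it.

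The polysomal group means of these loci, which come from other libraries of the same time points, moved in the same direction. All 14 loci called lower in total mRNA had a polysomal mean at 4 h at least 2-fold below that at 2 h, with a median log2 change of -1.47. All 5 called higher had a higher polysomal mean at 4 h, 3 of them by at least 2-fold, with a median log2 change of 1.14. Over the 200 loci the median log2 change of the polysomal mean was -0.09, beside 0.02 over the 9373 loci. Across the 200 loci, the changes of the total and polysomal means between 2 h and 4 h had a Spearman correlation of 0.801, as a description. The loci share their libraries, and the polysomal RNA was drawn from livers of the same time points. At 4 h, total and polysomal libraries with the same number deviated together, so the polysomal means are not independent of the total mRNA that picked these loci.

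**Figure D2:**
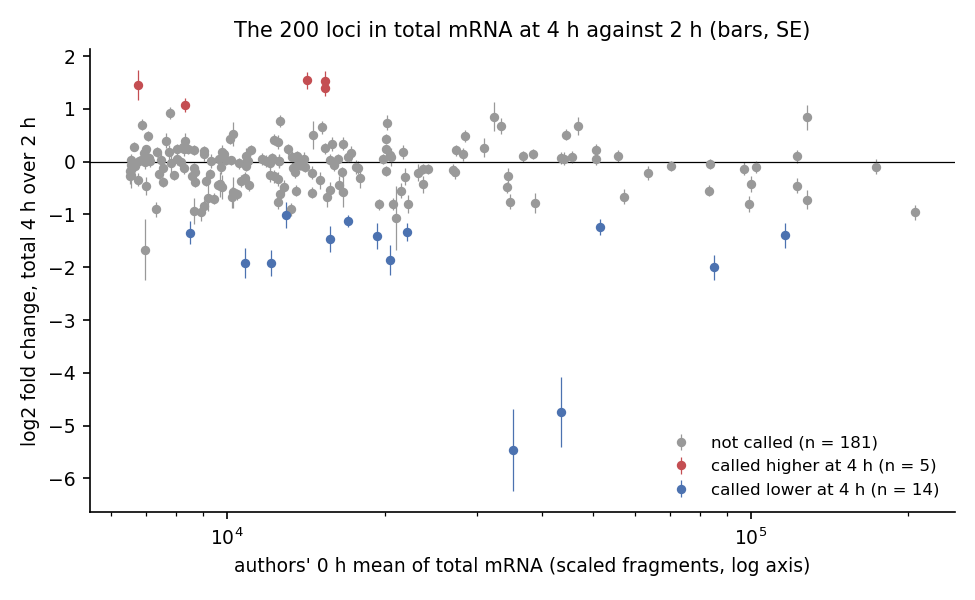
Log2 fold change of total mRNA at 4 h over 2 h (y axis, edgeR, bars SE) against the authors' 0 h mean of scaled fragments (x axis, log scale) for each of the 200 loci. The 5 loci called higher (red) had 0 h ranks of 82 to 192, whereas the 14 called lower (blue) reached rank 7 and included a pair of loci that changed by -4.74 and -5.46 on the log2 scale.

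The 5 loci with the highest 0 h means differed in their course. XLOC_036465, at rank 1, had 19578, 21945 and 20623 CPM at 0 h, 28494, 20183 and 28698 at 2 h, and 13543, 13686 and 12529 at 4 h. Its 4 h libraries lay below all others, with a log2 fold change of -0.96 ± 0.14 between 2 h and 4 h (SE, adjusted p = 0.000569, edgeR), just under the 2-fold limit. XLOC_017208, at rank 4, moved the other way: it had 7018, 8829 and 5862 CPM at 2 h and 15436, 14505 and 9000.1 at 4 h, a log2 fold change of 0.84 ± 0.24 (SE, adjusted p = 0.0217, edgeR). Its libraries of 0 h, with 10810.3, 17152.5 and 10597.5 CPM, lay above those of 2 h. XLOC_021282, at rank 3, had a log2 fold change of -0.72 ± 0.18 (SE, adjusted p = 0.0123, edgeR) between 2 h and 4 h. XLOC_024669 and XLOC_031620, at ranks 2 and 5, gave -0.10 ± 0.14 and 0.10 ± 0.12 (SE), with adjusted p of 0.649 and 0.593 in edgeR, and their libraries of 2 h and 4 h overlapped.

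Set against 0 h, the level that chose the loci, the counts are a description only, and the comparisons share the 0 h libraries. At 2 h, 1 locus (XLOC_017764) passed the same thresholds as higher, beside 0.317% of all loci, and 1 (XLOC_032529, the locus at rank 192) as lower, beside 0.0793%. The latter rested on single libraries: without library 1 of 0 h (numbered from 0) its log2 fold change of -1.59 became -1.23, and without library 2 of 2 h -1.52, and in both cases it was no longer called. At 4 h, 6 loci passed as higher (background 5.08%) and 16 as lower (background 3.47%). The median log2 fold change from 0 h was -0.07 at 2 h and -0.15 at 4 h for the 200 loci, beside 0.00 and -0.02 for all loci. Of the 200 loci, 183 were still among the 200 highest total means at 2 h and 166 at 4 h, and 7 of the first 10 were still among the first 10 at 4 h. The 34 loci that entered by 4 h had stood between ranks 201 and 8235 at 0 h.

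**Figure D3:**
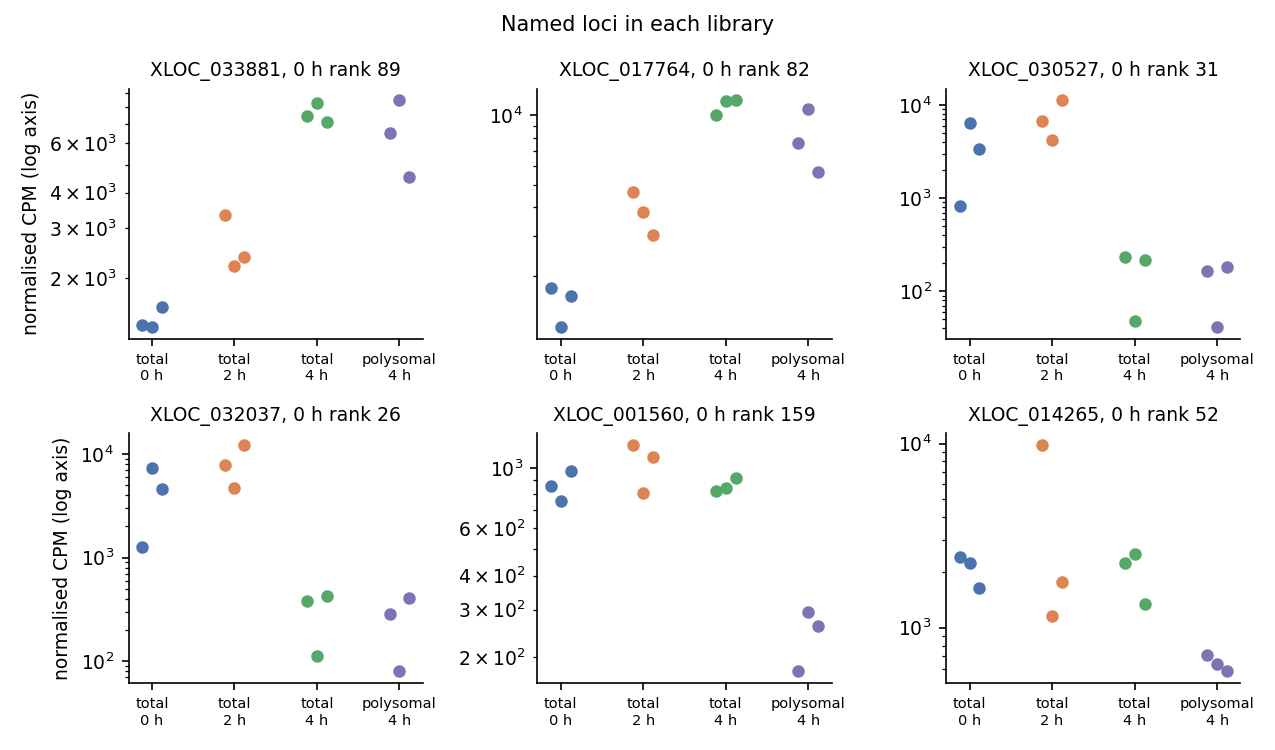
Normalised CPM (log axes, each panel with its own range) of 6 loci in each of 3 libraries of total mRNA at 0 h, 2 h and 4 h and of polysomal mRNA at 4 h, the last scaled with the 4 h libraries alone. XLOC_033881 and XLOC_017764 step up at each time point, XLOC_030527 and XLOC_032037 fall below all earlier libraries at 4 h, and XLOC_001560 and XLOC_014265 are lower in polysomal than in total mRNA at 4 h.

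The number of fragments from an mRNA grows with its length. A relative length was therefore computed for each locus as fragments over FPKM, scaled in each total library to the median of the 9373 loci and then taken as the median over the 9 libraries. The 200 loci had a median relative length of 0.754, beside 1.01 over the 9373 loci, and ran from 0.00374 to 2.80. On the FPKM scale the median of the 200 loci at 0 h was 581.1 FPKM, beside 9.44 FPKM, and 85 of the 200 were also among the 200 highest loci by FPKM. The 5 highest loci changed places on this scale: XLOC_024669 had 17851 FPKM, XLOC_031620 13102 FPKM and XLOC_036465 10126 FPKM, while XLOC_021282 had 3091 FPKM and the long locus XLOC_017208 2058 FPKM. For 4 loci with a relative length under 0.1 the FPKM is less certain, because it is divided by a very small effective length.

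At 4 h the shares of the 200 loci in heavy polysomes and in total mRNA overlapped. The polysomal share was 42.2%, 42.8% and 41.7% in the polysomal libraries (42.2% ± 0.531, SD, n = 3), which overlapped the total libraries. The difference of -0.52 points gave an exact permutation p of 0.4 (two-sided). The 10 highest loci held more of the polysomal fragments, with 11.6%, 10.8% and 11.6% against 10.7%, 9.67% and 10.0% in total mRNA, without overlap and with an exact permutation p of 0.1, the smallest possible for unpaired libraries. Within pairs of libraries of the same number the differences were 0.84, 1.16 and 1.58 points, and an exact permutation test over 3 pairs gave p = 0.25, the smallest it allows. Among the 10, XLOC_031620 at rank 5 differed the most, with 4 h group means of 128768 scaled fragments in total and 209425 in polysomal mRNA. The loci at ranks 1, 3 and 10 had lower polysomal than total means, so the sum is not a trait of each of the 10. For all 200 loci the paired exact p was 0.5, with 1 of 3 pairs higher in polysomes. On the scale of summed FPKM the 200 loci held 16.5% in polysomal and 12.7% in total mRNA, a difference of 3.79 points without overlap (exact permutation p = 0.1, paired 0.25). The direction of this comparison thus changes with the scale.

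Locus by locus, 13 of the 200 were at least 2-fold lower in polysomal than in total mRNA at 4 h in edgeR, where 3.18% of the 12575 loci tested were called. None was called at least 2-fold higher, where 1.34% of all loci were. At an unadjusted p under 0.05 and with no minimum fold, edgeR gave 44 of the 200 loci as higher in polysomes, beside 18.6% of all loci, and DESeq2 also called 0 at 2-fold. At an adjusted p under 0.05 with no minimum fold, 24 of the 200 were higher (background 11.6%), by at most 1.71-fold, and 36 lower (background 14.7%). Total and polysomal libraries with the same number deviated together, and with the number as a block the calls without a minimum fold became 43 higher and 51 lower, or 94 in place of 60. The median log2 fold change of the 200 loci was -0.08, beside 0.00 over all loci. Scaling by the upper quartile moved the median of all loci to 0.08.

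Of the loci higher in polysomes, XLOC_031620 at rank 5 was the most abundant in fragments. It had 13473, 13756 and 12348 CPM in total mRNA and 19649, 24292 and 20196 CPM in polysomal mRNA at 4 h, without overlap. The log2 fold change was 0.70 ± 0.16 (SE, adjusted p = 0.00945, edgeR). By the authors' means its log2 ratio of polysomal over total mRNA was also above 0 at 0 h (0.43) and at 2 h (0.50).

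The 13 loci that were lower in polysomes stood at ranks 16 to 159 and were lower by 2.07-fold to 3.60-fold, every polysomal library below every total library. XLOC_001560, at rank 159, had 839.7, 855.4 and 944 CPM in total mRNA and 177.3, 294.9 and 260.5 CPM in polysomal mRNA, a log2 fold change of -1.85 ± 0.18 (SE, adjusted p = 9.38e-05, edgeR). XLOC_014265, at rank 52, had 2290.9, 2564 and 1379.7 CPM in total mRNA and 710.0, 635.7 and 579.1 CPM in polysomal mRNA, a log2 fold change of -1.70 ± 0.21 (SE, adjusted p = 0.000384, edgeR). None of the 13 was called in total mRNA between 2 h and 4 h. The 13 fell at both ends of the length range: 7 were among the 50 longest of the 200 loci and 4 among the 50 shortest, and their median relative length was 1.65. Their log2 ratios by the authors' means, from other libraries, were below 0 in all 13 at 0 h, from -1.46 to -0.07 with a median of -1.25, and in all 13 at 2 h, with a median of -0.96. Of all 200 loci, 137 were below 0 at 0 h and 106 at 2 h.

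**Figure D4:**
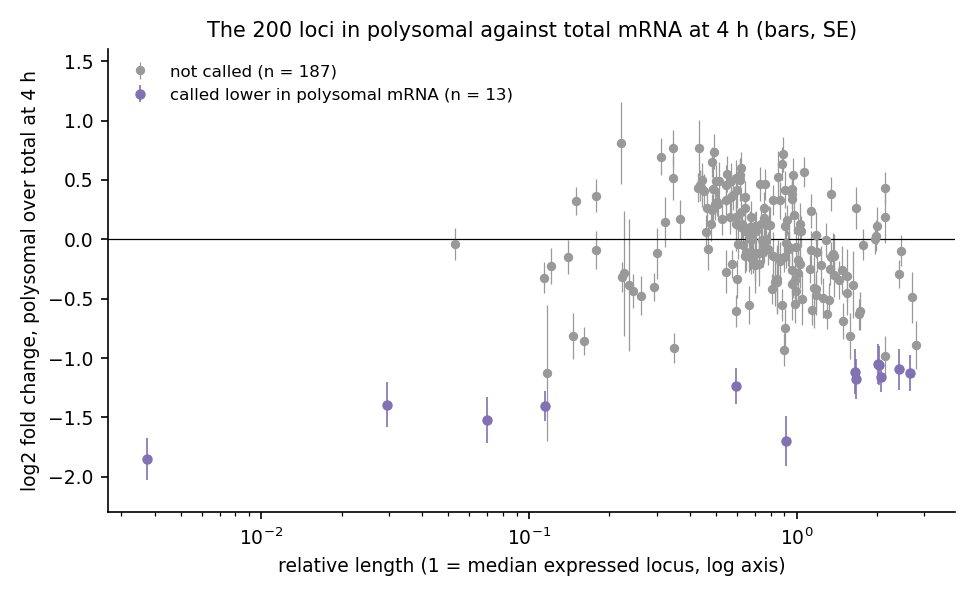
Log2 fold change of polysomal over total mRNA at 4 h (y axis, edgeR, bars SE) against relative length (x axis, log scale, relative to the median expressed locus) for the 200 loci. The 13 loci called lower (purple) include 4 with a relative length of 0.115 or less and 7 of the 50 longest loci, and no locus is called higher.

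Polysomal over total mRNA was followed over time as a ratio of the authors' group means, on the scale log2(mean + 1). These means have no replicate spread here, so changes of at least 1.5-fold are counted without a test, and the changes at 2 h and 4 h share the 0 h means. The total mean at 0 h, which chose the 200 loci, is the denominator of the 0 h ratio. Choosing on it favours low 0 h ratios and later rises, so the values of all loci are printed beside those of the 200 and nothing is read from the difference. The 200 loci had a median log2 ratio of -0.31 at 0 h, beside -0.04 over the 9373 loci. At 2 h the medians were -0.02 and 0.00, and at 4 h -0.07 and -0.00. The interquartile range of the log2 ratio of the 200 loci went from 0.85 at 0 h to 0.45 at 2 h and 0.60 at 4 h, and that of all 9373 loci narrowed likewise, from 0.77 to 0.47 and 0.57. The order of the loci by ratio was partly kept, with Spearman correlations across the 200 loci of 0.437 between 0 h and 2 h, 0.680 between 0 h and 4 h, and 0.736 between 2 h and 4 h, as a description. The 4 h means come from the same libraries as the test of polysomal against total mRNA.

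At 2 h, 49 of the 200 loci had a ratio at least 1.5-fold above that of 0 h, where 9.21% of the 9373 loci did, and 28 had one at least 1.5-fold below, where 10.3% did. At 4 h the counts were 23 above (background 3.40%) and 18 below (background 8.01%). The balance of rises and falls turned with the threshold and the choice of loci. At 2-fold, 7 were above (background 0.459%) and 11 below (background 2.07%) at 2 h, and 1 above (background 0.203%) and 8 below (background 1.72%) at 4 h. When the 200 loci were taken by 0 h FPKM instead, 17 were above and 46 below at 2 h among the 113 with enough fragments, and 14 above and 34 below at 4 h, and the median log2 change was -0.30 and -0.21 in place of 0.24 and 0.27. Polysomal means moved more often than total means: at 2 h, 44 polysomal means were at least 1.5-fold above 0 h (background 12.9%) and 32 below (background 11.1%), while total means gave 7 above (background 2.45%) and 7 below (background 1.28%). Of the loci whose ratio changed, 44 of the 49 and 23 of the 28 had a total mean at 2 h within 1.5-fold of 0 h. Only 14 of all 200 total means (7%) moved by 1.5-fold in either direction, so these counts are not read as a trait of the loci whose ratio changed. Of the 49, 15 were also at least 1.5-fold above at 4 h, and of the 28, 17 were at least 1.5-fold below, measured against the same 0 h means. The 49 went from a median log2 ratio of -0.76 at 0 h to 0.08 at 2 h and -0.30 at 4 h, and the 28 from 0.75 to -0.21 and -0.24. Both sets were picked by the change from 0 h to 2 h itself, which favours extreme 0 h ratios and a partial return at 4 h. No course over time is read from these medians or from the 15 and 17. The counts at 4 h depended on the polysomal libraries: without polysomal library 2 they were 37 above and 29 below, and without library 1 the count above was 14.

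The loci that rose and those that fell in ratio differed in length. Those above at 2 h had a median relative length of 0.992 and those below one of 0.231. Of the 50 shortest loci, with relative lengths up to 0.545, 23 were below and 3 above at 2 h. Of the 50 longest, with relative lengths from 1.05, 1 was below and 23 above. Such counts were not made for all loci of the same lengths. The median log2 change at 2 h was -0.54 in the 50 shortest and 0.57 in the 50 longest. All loci in these length ranges gave -0.43 and 0.18, so the direction is not particular to the 200. The median log2 ratio of the 50 shortest went from 0.39 at 0 h to 0.08 at 2 h and 0.16 at 4 h, and that of the 50 longest from -0.73 to -0.14 and -0.32. All loci in the same length range as the 50 shortest went from 0.41 to 0.02 and 0.08, and those in the range of the 50 longest from -0.23 to -0.04 and -0.08. Across loci, the Spearman correlation of relative length with the change in ratio at 2 h was 0.545 for the 200 loci and 0.498 for the 9373, as a description of points that share the same libraries. After the trend with length over all loci was removed, 46 of the 200 were above at 2 h and 6 below, beside 8.12% and 3.76% of all loci.

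In polysomal mRNA the 50 shortest loci held a smaller share after Tm. They made up 18.8% of the polysomal group mean at 0 h, then 13.1% (2 h) and 12.6% (4 h), while their share of the total mean was 12.7%, 12.4% and 10.8%. The 50 longest held 7.05%, 9.71% and 8.32% of the polysomal mean and 11.5%, 11.4% and 10.6% of the total mean. The 200 loci together held 45.7%, 47.1% and 42.2% of the polysomal mean. Within the pairs of 4 h libraries that share a number, the median log2 fold of polysomal over total mRNA was 0.02, 0.16 and 0.14 in the 50 shortest loci and -0.32, -0.17 and -0.53 in the 50 longest, the longest lying lower in all 3 pairs.

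**Figure D5:**
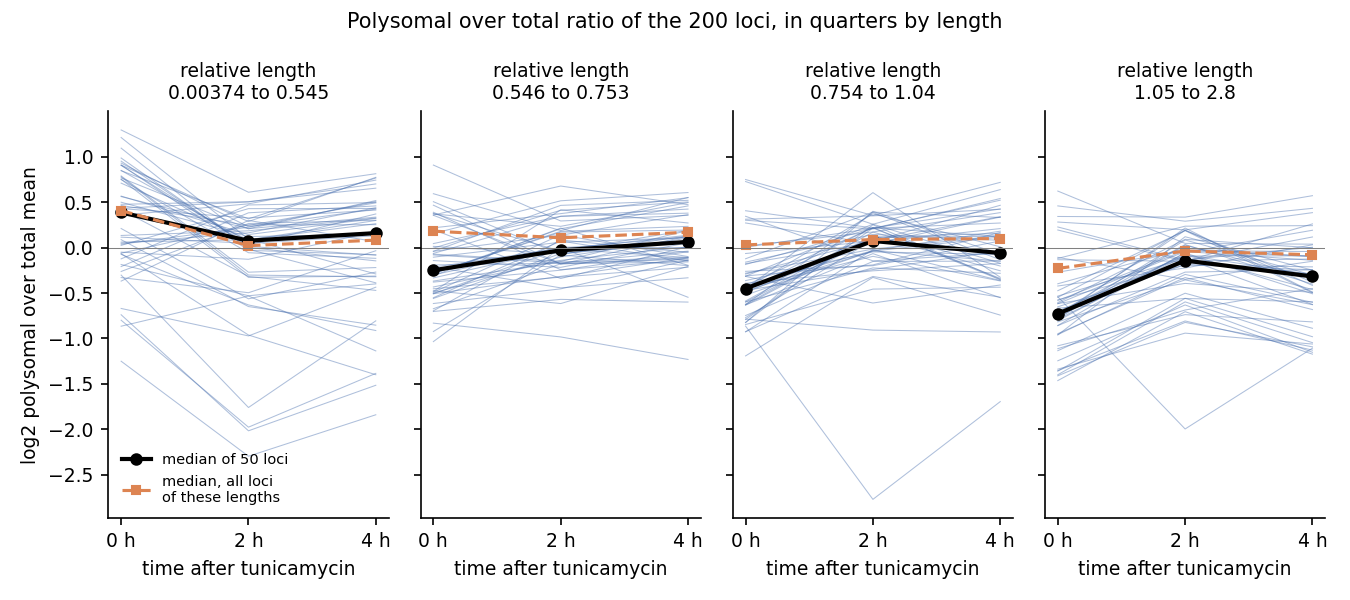
Log2 ratio of polysomal over total group means (y axis) at 0 h, 2 h and 4 h after Tm for the 200 loci in 4 groups by relative length (panels, 50 loci each, thin lines), with their median (black) and the median of all expressed loci in the same length range (orange). The median of the 50 shortest falls from 0.39 to 0.08 at 2 h, whereas that of the longest rises from -0.73 to -0.14.

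Single loci showed the range of these changes. XLOC_027433, at rank 68, had the largest rise in ratio at 2 h, a log2 change of 1.22: its polysomal mean went from 9608 to 21094 scaled fragments while its total mean went from 17017 to 15984. XLOC_008846, at rank 152, followed with a log2 change of 1.08. The largest fall, -1.91, was that of XLOC_014265, and it rested on 1 library of total mRNA: this locus had 9877, 1152 and 1763 CPM at 2 h, and without the first library the change was -0.36 and no longer 1.5-fold. XLOC_006541, at rank 80, had a log2 change of -1.46, with polysomal means of 12587 at 0 h and 6216 at 2 h and total means of 15520 and 21056. This locus was also lower in polysomal than in total mRNA at 4 h, by a log2 fold change of -0.81 ± 0.19 (SE, adjusted p = 0.0108, edgeR), which is under 2-fold.

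At 4 h the largest rises in ratio were those of XLOC_017208, at rank 4, with a log2 change of 1.05, and XLOC_024569, at rank 24, with 0.76. The polysomal mean of XLOC_017208 was 70700.3 scaled fragments at 0 h, 70073 at 2 h and 147947 at 4 h, while its total mean went from 128029 to 72706 and 129556. It was the only locus of the 200 whose ratio at 4 h was at least 2-fold above 0 h, beside 0.203% of all loci. That it reached 2-fold depended on single libraries. Without library 1 of total mRNA at 0 h its log2 change was 0.784. Without library 2 of total mRNA at 4 h it was 0.842, and without polysomal library 0 or 1 of 4 h 0.989 or 0.946. Leaving out each library of total mRNA and each polysomal library of 4 h in turn gave log2 changes from 0.784 to 1.197, above 1.5-fold in every case. The polysomal mean at 0 h was kept whole in these runs, so its spread is not in this range. The largest falls in ratio at 4 h were those of XLOC_032037 and XLOC_030527, with log2 changes of -1.50 and -1.48. Both sizes depended on single libraries: without library 0 of total mRNA at 0 h they were -1.06 and -1.01, and without library 1 of the same group -2.08 and -2.23. They were the loci with the largest falls in total mRNA, and their log2 ratios went from 1.21 and 1.10 at 0 h to 0.09 and -0.02 at 2 h. Over these hours their total means rose from 43509 and 35093 scaled fragments to 82472.5 and 73834. Their polysomal means went from 100831 and 74995 to 87967 and 72932. The rises in total mRNA were not called, with adjusted p of 0.577 and 0.565 in edgeR, and the 0 h libraries of both loci lay far apart. At 4 h their polysomal and total libraries overlapped, with adjusted p of 0.723 and 0.645 in edgeR.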

How the data were processed

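The authors aligned single-end reads of poly(A)-selected, strand-marked libraries with TopHat2 2.0.13 to GRCm38 and ran Cuffdiff of Cufflinks 2.2.1; the annotation release is not given in the sources used here. Deposited values used were the raw count of fragments and the FPKM of each locus and read group, neither averaged, and the authors' group means, a signal in which fragments are scaled by size factors and then averaged over read groups. Skipped loci are listed at 0. Of the table, 69 of 81 read groups and 21 of 27 group means belong to groups outside the labelled samples used, or to the polysomal read groups of 0 h and of 2 h, and were not used, nor were the 10 h pool, whose loci have separate numbers, and the authors' own comparisons (fold changes and p-values).

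The count test was that of edgeR 4.0.16, run in R 4.3.3 (TMM scaling, filterByExpr, quasi-likelihood test, Benjamini-Hochberg over all loci tested): 1 model of 9 total libraries, with 12606 loci, and 1 of the 6 libraries of 4 h, with 12575. SEs were taken as the log2 fold change over the root of the F statistic. DESeq2 1.42.0 was an alternative. Shares were compared by exact permutation (scipy 1.17.1). Libraries of a group are taken as separate mice, which the labels do not state one by one, so p-values measure the spread between these samples. At 4 h, read groups of total and polysomal RNA with the same number deviated together (r = 0.299, 0.344 and 0.347, against -0.237 to -0.0908 for other numbers), so the numbers were taken to pair the libraries. Simulated counts with 200 changed loci were scored at an adjusted p under 0.05, without a minimum fold. The total model recovered 64.6% of 2-fold and 94.0% of 4-fold changes between 4 h and 2 h. The 4 h model recovered 84.7% and 98.0% between polysomal and total mRNA. The 2-fold calls also need an estimated change of that size, so these values do not give the recovery of that rule.

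The 200 loci, thresholds and length groups were chosen with earlier results of these data known. Loci named by identifier are the 2 largest rises and falls of each comparison (among those called, where there is a test) and the 5 highest 0 h means; loci at ranks 7 and 12 were picked after their values were seen.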

Additional observations from a re-analysis of the deposited data

How the results depend on the processing

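With DESeq2, another filter on low counts or upper quartile scaling, the number of loci called at 2-fold stayed within 1.5 times the value given, for 4 h against 2 h and for polysomal against total mRNA, and for the former also with only the compared time points fitted. Among the 100 highest loci, 13 and 10 were called. Without a minimum fold the counts were 70 and 60. Taking the 200 highest loci by FPKM, of which 87 have under 50 scaled fragments, gave 22 for polysomal against total mRNA over the 130 tested; at 2 h 46 had a lower and 17 a higher ratio over the 113 with enough fragments, and at 4 h 34 and 14. Leaving out each library gave 18 to 26 calls between 4 h and 2 h, 11 to 15 between polysomal and total mRNA, 1 to 4 between 2 h and 0 h and 20 to 23 between 4 h and 0 h. The differences in share ran from -6.76 to -4.64 points and from -0.88 to -0.19 in the same way, and with summed FPKM were -1.05 and 3.79. The counts of ratio changes ran from 23 to 32 lower and 45 to 55 higher at 2 h, and from 16 to 29 lower and 14 to 37 higher at 4 h. For these counts the polysomal means of 0 h and 2 h were kept whole, so their spread is not in the ranges. At 1.2-fold, 48 were lower and 99 higher at 2 h, and 34 and 103 at 4 h; at 2-fold, 11 and 7, and 8 and 1. With the trend with length removed, 6 were lower at 2 h and 7 at 4 h; with the median change of all loci moved to 0, 13 were higher at 4 h. The causes were not tested. Read group numbers did not pair the total libraries over time (r from -0.0307 to 0.277 for the same number), and with the replicate block 18 loci were called between 4 h and 2 h, 3 between 2 h and 0 h, 22 between 4 h and 0 h and 14 between polysomal and total mRNA. Alternatives that leave out members under a relative length of 0.1, or libraries in the shares and ratios, and the paired test of shares, were chosen after seeing the data. Loci with too many reads, gene identities and replicate spread of the ratios at 0 h and 2 h limit what can be said.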
